A study of Mus musculus with 16 samples.

Results

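This account covers 1 contrast of a mouse study with 4 treatments: stem cells of mice given palbociclib together with rapamycin against stem cells of mice given palbociclib alone. It was chosen by the treatment named in the sample titles and takes 8 of the 16 libraries, 4 with both drugs (the combination) and 4 with palbociclib. All 15308 genes with enough counts to test were described. The cells were haematopoietic stem cells (HSCs), the rare marrow cells from which all blood is renewed, taken from C57BL/6J mice with no transgene or mutation named. Both groups received palbociclib at 30.4 mg/kg, and the combination group also received rapamycin at 6.4 mg/kg. The drugs went into the abdominal cavity in 100 µL of carrier, made of 20% DMSO, 40% PEG 400 and phosphate-buffered saline, once every 48 h over 85 days. The other 8 libraries came from mice given the carrier alone (vehicle, 4 libraries) or rapamycin alone (4 libraries), and enter here through the shared estimate of spread and 1 later comparison. Ages of the mice are not given here.

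Palbociclib blocks CDK4 and CDK6, the kinases that cyclin D switches on early in the cell cycle. These kinases phosphorylate the retinoblastoma protein RB, which then releases the E2F factors that turn on the genes of DNA replication. Rapamycin binds the small protein FKBP12, and the pair inhibits mTOR complex 1, the kinase complex that promotes protein and lipid synthesis when nutrients and growth factors are present and restrains autophagy. HSCs are mostly quiescent and small, and the title of the series asks about cell size and the potential of stem cells. The contrast describes how levels differed when rapamycin was given together with palbociclib rather than palbociclib alone.

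Each library was made from 10000 cells, sorted in G0 or G1 after lineage-positive cells had been depleted. The 8 libraries held 10133860 to 14163950 estimated counts, and 18640 to 20224 genes had a count. Whether each library came from its own mouse is not stated in the labels. The p-values here therefore reflect the spread among libraries alone, part of which may be technical. For the edgeR fit this is the spread within the groups of all 16 libraries. Of the genes whose proteins were stained for the sort, Slamf1 (CD150) was present at 15.8 to 41.7 CPM (its counts scaled to the size of the library), Kit (CD117) at 190.1 to 433 CPM and Ly6a (Sca-1) at 157 to 793 CPM. The HSC regulators Hlf and Mecom had 39.7 to 88.8 and 26.5 to 54.5 CPM in these libraries. Genes of other blood cells were there too: neutrophil genes took 1.66% to 11.2% of the counts of palbociclib libraries and 1.39% to 8.4% of those of combination libraries. B cell and immunoglobulin genes took 0.0583% to 1.79% and 0.0075% to 1.16%. In two-sided exact permutation tests of 8 such measures of library make-up, the groups gave adjusted p of 0.495 to 0.83, where the smallest unadjusted p that 4 against 4 libraries allow is 0.0286. Less RNA per cell and fewer cells of a type cannot be told apart in such pooled RNA.

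Adding rapamycin to palbociclib gave no gene a difference that passed the test over all genes. With edgeR's quasi-likelihood test and Benjamini-Hochberg adjustment, 0 of 15308 genes (0%) had an adjusted p below 0.05, and 436 (2.85%) had an unadjusted p below 0.05, where 765 would be 5% of the genes tested. Of these, 255 (1.67%) had higher levels in the combination and 181 (1.18%) had lower levels. All 4 combination libraries lay above all 4 palbociclib libraries in 342 genes (2.23%), and below them in 247 genes (1.61%). The lowest adjusted p was 0.485, of Crem, and the next was 0.9998. Below, higher and lower therefore describe measured levels, and no gene's difference passed this test.

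The median log2 fold change of all genes was -0.01, with quartiles at -0.24 and 0.21, and 7805 genes (51%) had a negative value. The standard error of a log2 fold change had a median of 0.39, and of 0.22 among the 5708 genes whose mean log2 CPM was 5 or more. DESeq2's Wald test, run as an alternative on the same counts but without the low-count filter of the edgeR fit, called 20 genes, 10 of them higher in the combination. Of the 20, 17 were among the 15308 genes tested with edgeR. Among the 20 were 7 immunoglobulin genes and, of the genes described here, Crem, Rgs1, Gpr4, Bcl2l11, Il4ra, Ctla2b and Myl10. The immunoglobulin genes went both ways: Igkv8-27 was higher in the combination (DESeq2 adjusted p = 0.0467) and the others were lower. Both limma-voom and limma on the deposited log2 TPM values called 0.

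**Figure D1:**
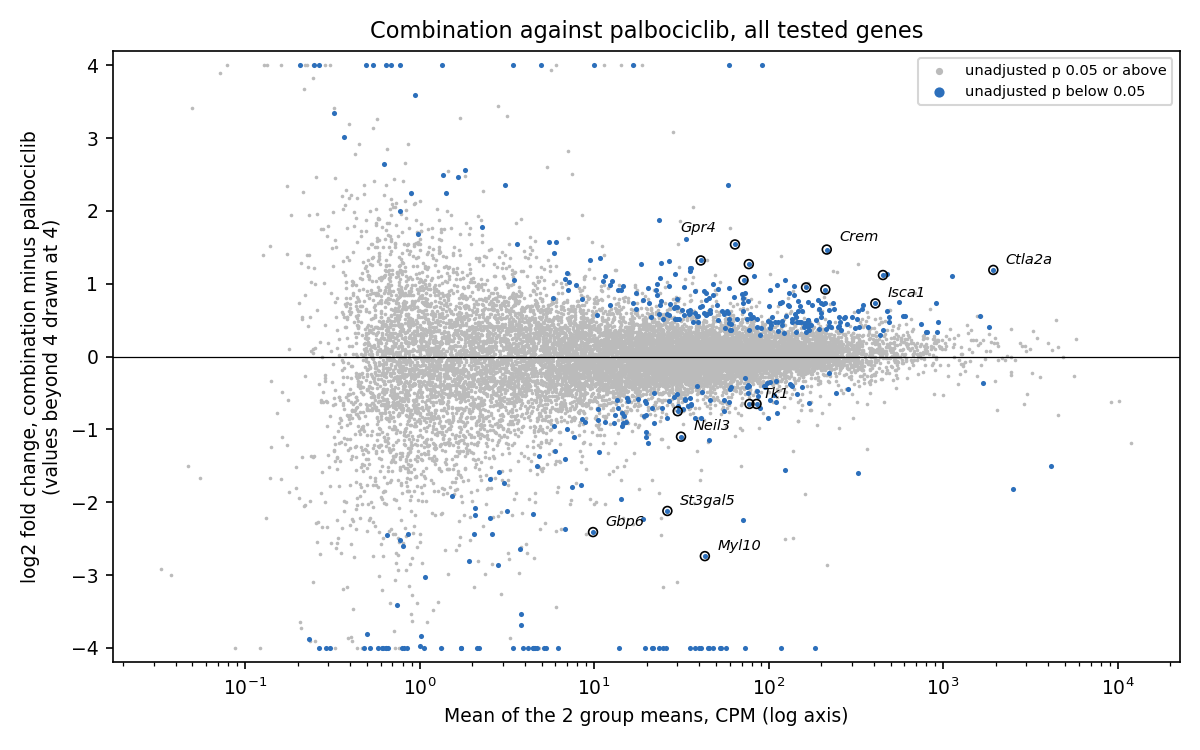
Each point is 1 of the 15308 tested genes, with its mean CPM on a log x axis and its log2 fold change, combination minus palbociclib, on the y axis (values beyond 4 are drawn at 4). Circles mark the named genes of smallest p, among them Crem at 1.47 and Myl10 at -2.74, and the spread of all genes is widest at low CPM.

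The 10 higher genes of smallest p had separate groups in every case, against 2.23% of all genes in that direction. They were picked by p from these same libraries, so their separate groups are no further support. The lower genes of smallest p were picked in the same way. Crem, a transcription factor of the cyclic AMP response with activating and repressing forms (ENSMUSG00000063889), had 77.7, 127, 131 and 122 CPM in palbociclib replicates 1 to 4, and 223, 364, 333 and 348 CPM in combination replicates 1 to 4. All 4 combination libraries lay above all 4 palbociclib libraries. Its log2 fold change was 1.47 ± 0.26 (SE), a ratio of 2.77, with an edgeR adjusted p of 0.485. Across fits that each left out 1 of the 8 libraries it stayed between 1.32 and 1.60, and DESeq2 gave an adjusted p of 2.66e-04.

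Rgs1, which shortens signalling from chemokine and other G-protein-coupled receptors (ENSMUSG00000026358, GRCm38 chromosome 1, 144242296 to 144249242, minus strand), had 15.4, 29.8, 26.9 and 21.1 CPM in palbociclib and 47.2, 40.8, 74.4 and 71.4 CPM in combination libraries. The groups did not overlap, and combination replicates 3 and 4 were the highest. The log2 fold change of Rgs1 was 1.32 ± 0.27, with a 95% interval of 0.76 to 1.89 (edgeR adjusted p = 0.9998, DESeq2 adjusted p = 0.00301). Gpr4, a receptor that senses acid outside the cell (ENSMUSG00000044317, chromosome 7, 19212538 to 19224174, plus strand), had 23.2, 19.9, 38.1 and 50.2 CPM in palbociclib and 82.4, 106, 103 and 90.8 CPM in combination libraries. Even the lowest combination library, replicate 1, was above the highest palbociclib library. The log2 fold change of Gpr4 was 1.54 ± 0.33 (edgeR adjusted p = 0.9998, DESeq2 adjusted p = 0.00865).

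Bcl2l11 encodes BIM, a protein that triggers apoptosis when growth factor signals are withdrawn (chromosome 2, 128126038 to 128162547, plus strand). It had 54.5, 43.2, 50.9 and 38.6 CPM in palbociclib and 83, 113, 115 and 76.5 CPM in combination libraries. The groups were separate, and the mean was 46.8 ± 7.21 CPM against 96.9 ± 20 CPM (SD, n = 4), a log2 fold change of 1.05 ± 0.23 (SE). Hbp1, a repressor of cell cycle genes, had 126, 167, 182 and 111 CPM in palbociclib and 234, 299.6, 261 and 313 CPM in combination libraries, also without overlap. The log2 fold change of Hbp1 was 0.92 ± 0.22. Il4ra, the ligand-binding chain of the interleukin-4 receptor, had 38.6, 44.7, 54.9 and 42.3 CPM against 85.9, 97.1, 137 and 115 CPM, a log2 fold change of 1.27 ± 0.30.

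The other 4 genes of smallest p in this direction follow. Ctla2a and Ctla2b, neighbouring near-identical genes for inhibitors of cysteine proteases, had log2 fold changes of 1.19 ± 0.30 and 1.12 ± 0.27. Estimated counts can move reads between such copies, so the pair is uncertain as single genes. In both, palbociclib replicate 1 was the lowest library, at 563 CPM for Ctla2a against 1232 to 1632 CPM in the other palbociclib libraries. Isca1, an assembly factor of mitochondrial iron-sulfur clusters, averaged 308 ± 76.3 CPM against 510.2 ± 91.1 CPM. Selp, the adhesion receptor P-selectin, averaged 112 ± 20.8 CPM in palbociclib and 216 ± 24.3 CPM in combination libraries (SD, n = 4). Their log2 fold changes were 0.73 ± 0.19 and 0.95 ± 0.25 (SE), with an edgeR adjusted p of 0.9998 for every gene of this group except Crem.

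**Figure D2:**
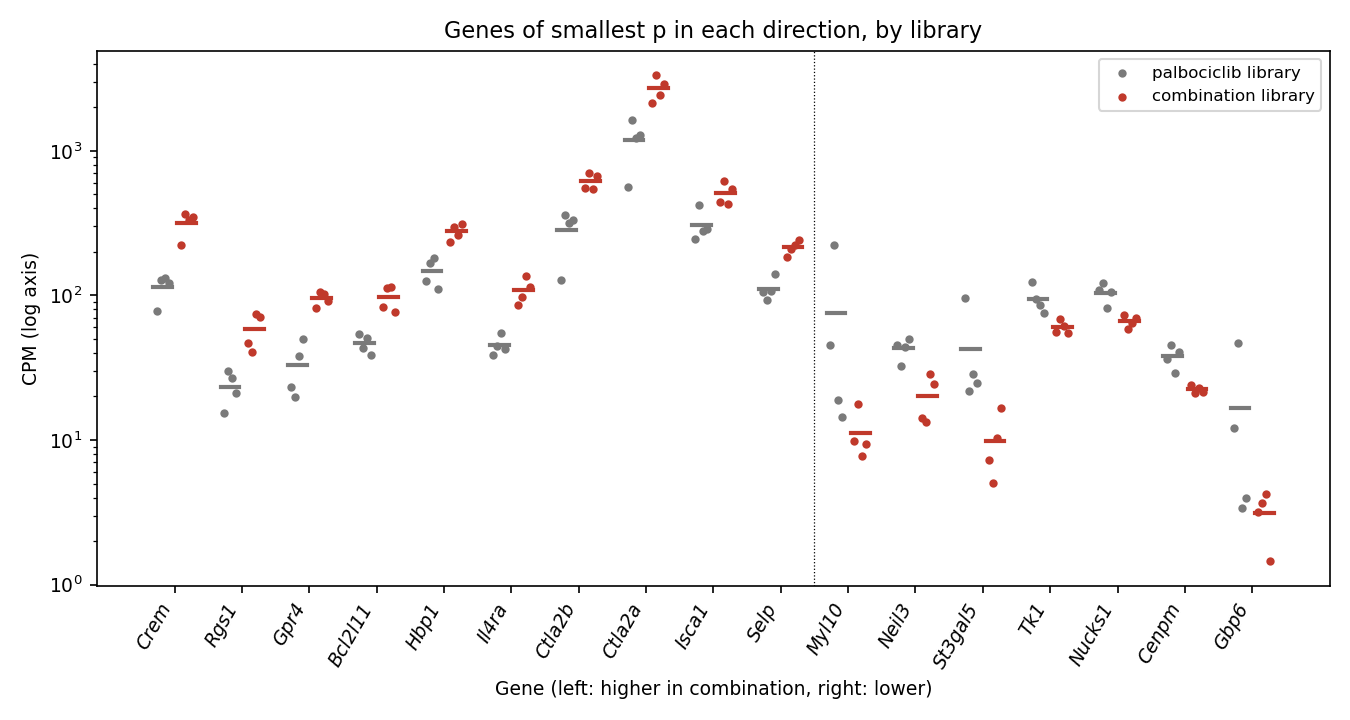
Points are the CPM of single libraries on a log axis, grey for palbociclib and red for combination, and bars are group means, for the named genes of smallest p without the immunoglobulin genes. The 10 genes on the left, picked by smallest p from these same libraries, have no overlap between groups, while Myl10 and Gbp6 on the right do overlap.

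Among genes with lower levels in the combination, several act on DNA. Neil3, a DNA glycosylase active in dividing cells, had 45.2, 32.7, 44 and 50.2 CPM in palbociclib and 14.2, 13.4, 28.4 and 24.2 CPM in combination libraries. No combination library reached the lowest palbociclib library, and the log2 fold change was -1.10 ± 0.29. Tk1, the thymidine kinase of S phase, had 124, 94.5, 85.8 and 75.4 CPM against 55.9, 68.9, 61.7 and 55.1 CPM, also without overlap, and a log2 fold change of -0.65 ± 0.19. Nucks1, a chromatin protein with a part in DNA repair, and Cenpm, a centromere protein, had log2 fold changes of -0.65 ± 0.19 and -0.75 ± 0.23, and their groups did not overlap either. Cenpm lay between 21.3 and 24.1 CPM in the 4 combination libraries and between 28.9 and 45.7 CPM in the palbociclib libraries.

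For the other 3 genes outside the immunoglobulin family, 1 palbociclib library each held much of the difference. Myl10, a myosin light chain, had 45.4, 222, 18.9 and 14.4 CPM in palbociclib and 9.89, 17.7, 7.81 and 9.36 CPM in combination libraries. Its log2 fold change was -2.74 ± 0.71 and became -1.22 without palbociclib replicate 2. St3gal5, which makes the ganglioside GM3, had 95.8 CPM in palbociclib replicate 1, 21.7 to 28.7 CPM in the other palbociclib libraries and 5.04 to 16.6 CPM in the combination. Its log2 fold change went from -2.12 ± 0.58 to -1.35 without palbociclib replicate 1. Gbp6, a guanylate-binding protein induced by interferon, went from -2.41 ± 0.74 to -1.06 without palbociclib replicate 2, which held 46.9 CPM of it.

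The remaining 3 genes of smallest p were immunoglobulin genes, which are transcribed in B cells and plasma cells. Igkv4-70 had 1.96, 4.41, 327 and 256 CPM in the palbociclib libraries and 0 counts in every combination library. Igkv12-41 had 166, 0.706, 55.8 and 80 CPM against 0 to 0.206 CPM, and Ighg2c had 8.65 to 889 CPM against 0 to 1.03 CPM. Single immunoglobulin segments resemble each other in sequence, so they are uncertain as single genes, and no fold is given for groups at or near 0. The B cell and immunoglobulin share of the same libraries was 1.14%, 0.0583%, 1.79% and 1.31% in palbociclib and 0.459%, 0.0075%, 1.16% and 0.763% in combination. Its part in these differences was not tested.

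The direct targets of the drugs showed overlapping groups at the RNA level. Cdk4 averaged 625 ± 43.4 CPM in palbociclib and 599 ± 73.5 CPM in combination libraries (SD, n = 4), and its log2 fold change of -0.06 had a 95% interval of -0.33 to 0.21. Cdk6 averaged 205 ± 85 CPM and 253 ± 44.8 CPM, with an interval of -0.39 to 1.00 around 0.31. The cyclin D genes Ccnd1, Ccnd2 and Ccnd3 had log2 fold changes of -0.06, 0.24 and 0.00, and Rb1, which encodes RB, had -0.42 with an interval of -1.25 to 0.40. For Mtor the value was -0.24, with an interval of -0.96 to 0.49. Rptor and Rictor, which define the 2 mTOR complexes, had -0.04 and -0.25. Fkbp1a, the gene of the rapamycin-binding protein FKBP12, had 212, 357, 292 and 291 CPM in palbociclib and 356, 465, 337 and 363 CPM in combination libraries. The groups overlapped for Fkbp1a because palbociclib replicate 2 lay above combination replicates 1 and 3, and its log2 fold change was 0.40 ± 0.19.

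Genes of S phase and of G2/M were lower as groups in the combination than in the palbociclib libraries. Of 45 S-phase genes, which copy DNA and supply its building blocks, 44 had a negative log2 fold change, 0 were called and the median was -0.30, against 51% negative and a median of -0.01 over all genes. The mean log2 CPM of the list was 6.66, 6.54, 6.67 and 6.48 in the palbociclib libraries and 6.39, 6.07, 6.42 and 6.30 in the combination libraries. All 4 combination libraries lay below all 4 palbociclib libraries on this scale. In 4 members the unadjusted p was below 0.05 (1.18% of all genes, in the lower direction), and in 6 all combination libraries were lower (1.61% of all genes). Besides Tk1 these included Dut, which keeps uracil out of DNA, at 178, 168, 147 and 132 CPM against 126, 111, 129 and 104 CPM. Rpa2, a subunit of the protein that coats single-stranded DNA, had 153, 173, 148 and 129 CPM against 125, 118, 103 and 119 CPM. The log2 fold changes of Dut and Rpa2 were -0.41 ± 0.15 and -0.38 ± 0.14, while Cdc45, part of the replicative helicase, had -0.50 ± 0.23 with overlapping groups.

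G2/M genes, which drive mitosis, had a negative log2 fold change in 45 of 47 members, with 0 called and a median of -0.59. Their mean log2 CPM was 6.04, 5.42, 5.77 and 5.85 in the palbociclib libraries and 5.04, 4.28, 5.77 and 5.43 in the combination libraries. Combination replicates 1 and 2 were the lowest of the 8, and combination replicate 3 was level with palbociclib replicate 3. The median was -0.33 without combination replicate 2 and -0.81 without combination replicate 3. Neutrophil genes took 3.1%, 1.39%, 8.4% and 6.15% of the counts of combination replicates 1 to 4, so the 2 libraries low in G2/M genes were also low in neutrophil genes. Palbociclib replicate 2 was the lowest of its group in both, at 1.66% and 5.42. Its neutrophil share was below that of combination replicate 1, but its G2/M mean was above. With the log2 neutrophil share as a covariate the median was -0.45 for G2/M and -0.24 for S-phase genes. The part of neutrophil genes in the G2/M difference was not tested. The cells were sorted in G0 or G1, and these levels are averages over 10000 cells, so they do not show how many cells were cycling.

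**Figure D3:**
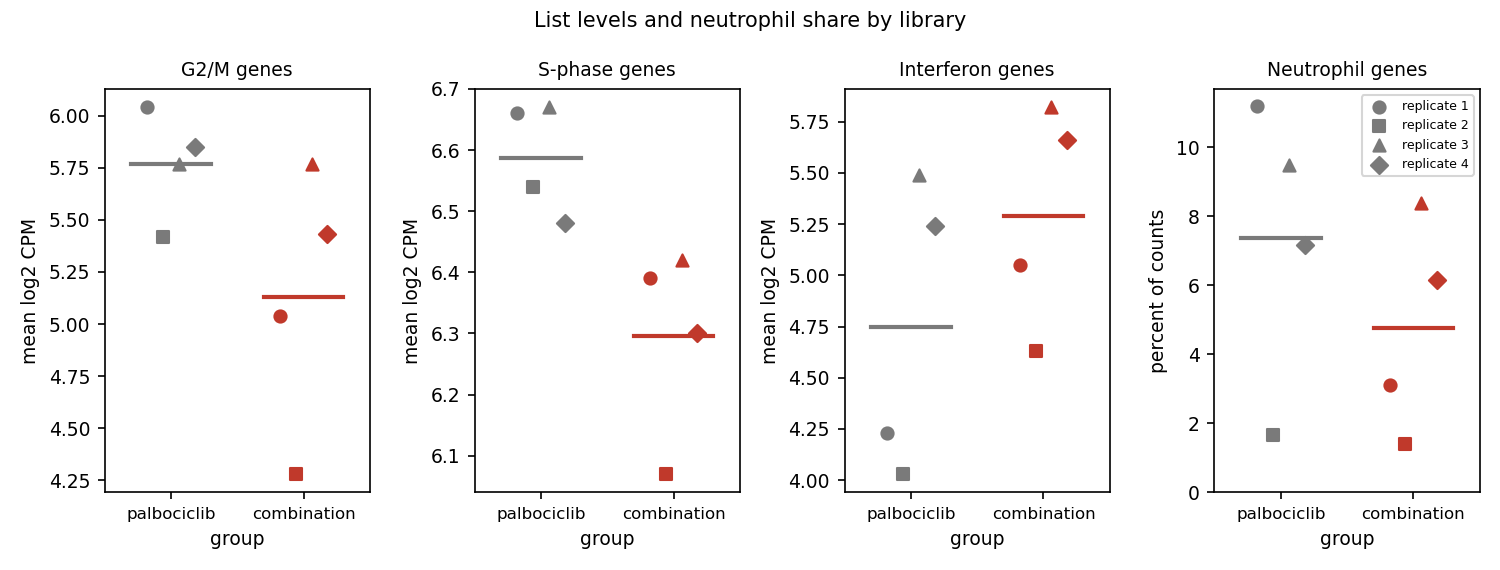
Points are single libraries and bars are group means: mean log2 CPM of the G2/M, S-phase and interferon lists in the first 3 panels and percent of counts in neutrophil genes in the last, with a marker shape per replicate number. The groups are separate for S-phase genes only, and combination replicates 1 and 2 are low in both G2/M and neutrophil genes.

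Single G2/M genes varied widely between libraries. Cenpf, a kinetochore protein, had 18.7, 16.8, 5.72 and 20.1 CPM in palbociclib and 6.09, 3.54, 8.74 and 6.36 CPM in combination libraries. Palbociclib replicate 3 lay within the combination range, and the log2 fold change was -1.31 ± 0.45. Mki67, a coat protein of mitotic chromosomes used to mark cycling cells, had 39.5, 20.8, 12.4 and 36.1 CPM against 11, 5.85, 21.6 and 12.5 CPM, again with overlap, and a log2 fold change of -1.10 ± 0.43. In 1 of the 47 members all combination libraries lay below all palbociclib libraries, as in 1.61% of all genes. That member was Bub1b, a kinase of the spindle checkpoint, at 129, 133, 126 and 103 CPM against 73.7, 55.5, 101 and 92.9 CPM. Its log2 fold change was -0.60 ± 0.26, and that of Smc2, a condensin subunit, was -0.85 ± 0.36.

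G2/M promoters are known for 2 elements, the CHR, here searched as TTTGAA or TTCGAA, and the CCAAT box, searched as CCAAT, on both strands of windows that run from 250 bases before to 50 bases after the start of a gene. The RefSeq promoter table of GRCm38.p6 was used with the windows of 1 chromosome left out. In it, 33 of 41 windows of the G2/M list (80.5%) held the CHR letters, against 19.2% of all 32851 windows. CCAAT was in 75.6% of the G2/M windows, against 37.4%. The windows of 3 of the members described above are shown because these genes carry the G2/M values, with the matched letters in capitals. They are Cenpf at chr1:189688037-189688336 (minus strand), Mki67 at chr7:135716330-135716629 (minus strand) and Bub1b at chr2:118597961-118598260 (plus strand), each printed 5′ to 3′ on the strand of the gene. Cenpf holds 1 CHR and 2 CCAAT matches, Mki67 2 and 3, Bub1b 2 and 1, and Smc2, which is not shown, 2 and 1.
Cenpf: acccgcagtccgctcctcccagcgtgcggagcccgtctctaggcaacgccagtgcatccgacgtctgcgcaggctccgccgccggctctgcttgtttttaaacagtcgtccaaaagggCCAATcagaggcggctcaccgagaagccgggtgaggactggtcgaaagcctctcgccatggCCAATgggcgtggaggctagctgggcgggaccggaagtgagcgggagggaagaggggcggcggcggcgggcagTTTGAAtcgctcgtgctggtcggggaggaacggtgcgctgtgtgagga
Mki67: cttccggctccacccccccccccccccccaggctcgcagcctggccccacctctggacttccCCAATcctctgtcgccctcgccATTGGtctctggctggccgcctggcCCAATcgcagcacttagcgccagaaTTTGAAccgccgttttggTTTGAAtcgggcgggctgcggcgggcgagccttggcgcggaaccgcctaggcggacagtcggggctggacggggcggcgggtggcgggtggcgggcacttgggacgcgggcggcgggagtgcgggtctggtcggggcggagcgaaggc
Bub1b: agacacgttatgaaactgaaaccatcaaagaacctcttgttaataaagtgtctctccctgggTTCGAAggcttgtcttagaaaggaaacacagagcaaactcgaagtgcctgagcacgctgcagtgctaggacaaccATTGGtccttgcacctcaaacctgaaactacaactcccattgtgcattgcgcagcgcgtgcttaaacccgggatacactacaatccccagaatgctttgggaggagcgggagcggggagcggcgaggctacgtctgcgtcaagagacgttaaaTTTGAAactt
The E2F letters, TTTCCCGC, TTTGGCGC, TTTCGCGC or TTTGCCGC on either strand, were in 38.1% of 42 S-phase windows, against 2.26% of all windows. The windows of Tk1, Dut, Rpa2 and Cdc45 held no E2F letters. These are matches of letters, and binding was not measured.

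DNA repair genes and cell cycle brakes were described as further groups. Of 36 genes of the Fanconi and homologous recombination pathways, which mend breaks and crosslinks, 33 had a negative value, against 51% of all genes, with 0 called and a median of -0.30. In 8 of the 36 all combination libraries lay below all palbociclib libraries, as in 1.61% of all genes. Rad50, part of the complex that senses DNA breaks, had 19.6, 30.9, 20.9 and 29.7 CPM in palbociclib and 12, 14, 15.8 and 16 CPM in combination libraries. Its groups were separate, with a log2 fold change of -0.80 ± 0.28. Fancd2, the central protein of crosslink repair, had -1.04 ± 0.45 with overlapping groups, whereas Fancf, of the complex that modifies it, had 0.84 ± 0.31 and higher levels in every combination library. The 28 genes around CDK4/6 and RB were balanced, with 13 negative and a median of 0.01. Within them Cdkn1a, the p21 inhibitor of cyclin-dependent kinases, had 116, 108, 124 and 154 CPM against 192, 224, 229.6 and 198 CPM. All combination libraries were above all palbociclib libraries for Cdkn1a, and its log2 fold change was 0.75 ± 0.21. Cdkn2c, the p18 inhibitor of CDK4 and CDK6, had -0.51 with overlapping groups, and the 25 p53 target genes had a median of 0.04.

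Genes of growth, the side of the cell that mTOR complex 1 controls, gave small differences. Of 79 ribosomal protein genes, 77 had a positive log2 fold change, with a median of 0.18, a range of -0.09 to 0.38 and 0 called. Their mean log2 CPM was 8.44, 8.53, 8.19 and 8.29 in palbociclib and 8.66, 8.67, 8.48 and 8.33 in combination libraries, and combination replicates 3 and 4 lay within the palbociclib range. The median was 0.11 without combination replicate 1. Rps9, of the small subunit, averaged 802 ± 53.6 CPM against 975 ± 94.3 CPM (SD, n = 4), a log2 fold change of 0.28. Rps19, of the same subunit, had 0.36. As a share, 3.71% ± 0.633 against 4.29% ± 0.739 of all counts, the groups gave an unadjusted two-sided exact permutation p of 0.171 (SD, n = 4). Ribosome biogenesis (44 genes) and translation factors (38 genes) each had a median of 0.01. Eef2k, the kinase that slows translation elongation and that mTOR signalling restrains, had 0.45 with overlapping groups. The 42 genes of the mTOR pathway itself had a median of 0.04, with 0 called. The group included Ulk1, the kinase that starts autophagy, at 0.61 ± 0.34, and Akt2, a kinase upstream of mTOR, at 0.31 without overlap.

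Mitochondrial genes of the nucleus leaned lower by small amounts. Of 74 nuclear genes of oxidative phosphorylation, 64 had a negative value and the median was -0.10, and of 75 mitochondrial ribosome genes 57 did, with a median of -0.09. The mean log2 CPM of the mitochondrial ribosome list was 5.95 to 6.05 in the palbociclib and 5.85 to 5.90 in the combination libraries, without overlap. For oxidative phosphorylation it was 7.50 to 7.64 and 7.44 to 7.50, the groups meeting at 7.50. Ndufs6, a subunit of respiratory complex I, had 126, 102, 108 and 103 CPM against 90.7, 83.7, 87.3 and 81.1 CPM. Its groups did not overlap, with a log2 fold change of -0.36 ± 0.12, and Ndufa5, of the same complex, had -0.42 ± 0.17, also without overlap. Mrpl55, a mitochondrial ribosome protein, had -0.40 ± 0.18. The 13 mRNAs encoded in the mitochondrion itself had a median of -0.16 that was 0.00 without palbociclib replicate 1, and mt-Co3 was almost absent from combination replicate 3, at 0.103 CPM against 119 to 264 CPM in the other 7.

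Metabolic groups differed in direction. Sterol synthesis genes had negative values in 18 of 24 members, with a median of -0.24, and the list's mean log2 CPM was 4.96 to 5.10 in palbociclib and 4.74 to 4.86 in combination libraries, without overlap. Hsd17b7, a late enzyme of cholesterol synthesis, had 14.6, 17.7, 24.9 and 19.5 CPM against 10.1, 7.35, 10.1 and 12.1 CPM, without overlap and with a log2 fold change of -0.95 ± 0.38. Lss, which closes the sterol ring, had -0.68 with overlapping groups. Targets of ATF4, the factor that mTOR complex 1 and amino acid stress use to raise amino acid supply, were negative in 17 of 29, with a median of -0.13 that was -0.08 without combination replicate 4. Among them Cars, which loads cysteine onto its tRNA, had 94.9, 89, 115 and 113 CPM against 70.8, 62.6, 76.9 and 73.3 CPM, without overlap, and Asns, asparagine synthetase, had -0.51 ± 0.22 with overlap. The log2 fold change of Cars was -0.54 ± 0.23. Cebpb, also named from this list by smallest p, was on the higher side, at 124 ± 26.9 CPM in palbociclib and 189 ± 68.6 CPM in combination libraries (SD, n = 4), with overlap.

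Sugar metabolism and lysosomes had higher single genes. Hk2, the hexokinase that traps glucose in the cell, had 53.2, 30.1, 34.1 and 35.5 CPM in palbociclib and 57.6, 59.5, 74.8 and 58 CPM in combination libraries. Slc2a1, the glucose transporter GLUT1, had 78.6 to 89.9 CPM against 112 to 135 CPM. In both genes the groups were separate, with log2 fold changes of 0.71 ± 0.23 and 0.52 ± 0.31, while the 22 glycolysis genes as a list had a median of 0.06. Of 18 hypoxia genes 11 had positive values, among them Ndrg1, a stress-induced gene, at 126 to 179 CPM against 201 to 313 CPM, and Egln3, an oxygen-sensing hydroxylase, with a log2 fold change of 0.90 ± 0.38. Lysosome and autophagy genes had a median of 0.04 over 46 members. Ctsd, the lysosomal protease cathepsin D, had 0.48 ± 0.20, and Map1lc3b and Gabarapl2, which coat the membranes of autophagosomes, had 0.45 ± 0.19 and 0.38 ± 0.17. In each of these 3 genes 1 or more combination libraries lay within the palbociclib range.

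**Figure D4:**
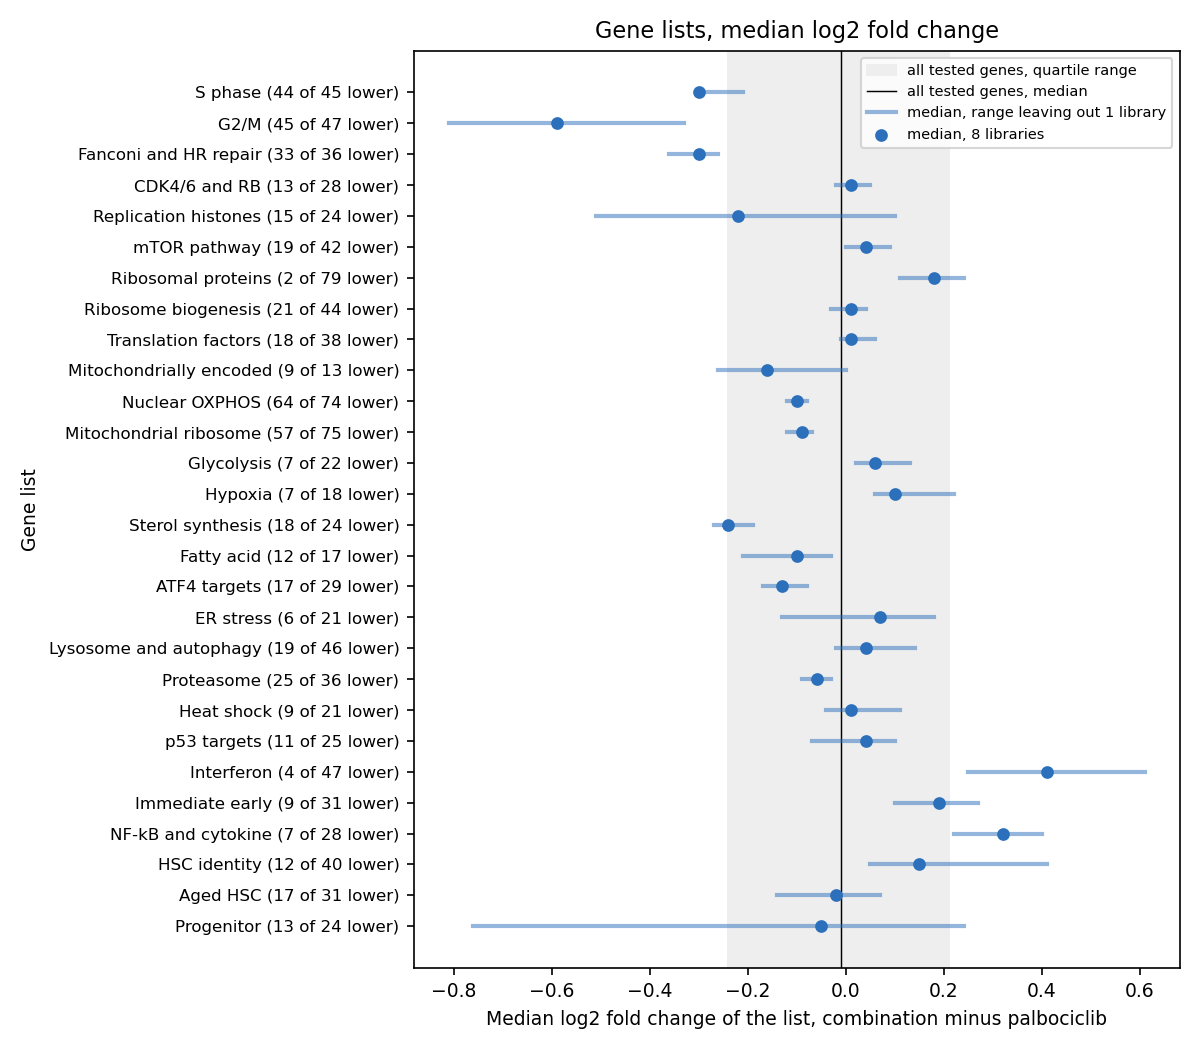
Points are the median log2 fold change, combination minus palbociclib, of each gene list, lines are its range when each of the 8 libraries is left out in turn, and the grey band is the quartile range of all tested genes (-0.24 to 0.21). S-phase, G2/M and repair genes have medians below the band at -0.30, -0.59 and -0.30, and interferon and NF-kB genes above it at 0.41 and 0.32.

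Genes of inflammatory signalling were on the higher side. Interferon-induced genes, which arm cells against viruses, had positive values in 43 of 47 members, with a median of 0.41 and 0 called. Their mean log2 CPM was 4.23, 4.03, 5.49 and 5.24 in palbociclib and 5.05, 4.63, 5.82 and 5.66 in combination libraries. Replicates 3 and 4 were high and replicates 1 and 2 low in both groups, so the groups overlapped. Without palbociclib replicate 1 the median was 0.25, and without palbociclib replicate 3 it was 0.61. Irf7, the factor that amplifies the interferon response, had 67, 48.1, 152 and 113 CPM against 139, 87.5, 275 and 244 CPM. Isg15, a ubiquitin-like protein, had 15.5, 10.9, 38.8 and 24.4 CPM against 35.8, 28.7, 62.2 and 47.5 CPM. Both overlapped between groups, with log2 fold changes of 0.97 ± 0.38 and 0.96 ± 0.41, and Ifit3, which restrains viral RNA, had 1.88 ± 0.89. The core of the interferon element, searched as GAAANNGAA on both strands, was in 50% of 40 interferon windows, against 8.56% of all windows counted. Isg15 is shown as an example with 3 overlapping matches in capitals, at chr4:156200769-156201068 (minus strand, GRCm38.p6, RefSeq).
Isg15: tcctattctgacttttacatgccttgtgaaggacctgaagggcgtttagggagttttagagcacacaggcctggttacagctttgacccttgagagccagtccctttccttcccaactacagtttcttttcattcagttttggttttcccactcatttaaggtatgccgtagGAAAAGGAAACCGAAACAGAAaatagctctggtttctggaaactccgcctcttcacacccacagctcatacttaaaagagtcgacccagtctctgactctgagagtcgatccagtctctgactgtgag
The window of Irf7 held none of the letters searched.

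NF-kB and cytokine feedback genes were positive in 21 of 28 members, with 0 called and a median of 0.32. In 4 of the 28 all combination libraries lay above all palbociclib libraries, as in 2.23% of all genes. Pim2, a survival kinase induced by cytokines, had 48.3, 54.1, 93 and 106 CPM in palbociclib and 114, 175, 144 and 161 CPM in combination libraries. Nfkb1, a subunit of NF-kB, had 123, 134, 173 and 173 CPM against 212, 282, 212 and 243 CPM. Bcl3, a nuclear partner of that subunit, had 19.1 CPM in palbociclib replicate 2, 52 to 57.7 CPM in the other palbociclib libraries and 58.9 to 109 CPM in the combination. All 3 had separate groups, with log2 fold changes of 0.98 ± 0.29, 0.65 ± 0.23 and 0.82 ± 0.31. Immediate early genes, transcribed soon after a stimulus or the handling of cells, were positive in 22 of 31, with 0 called and a median of 0.19 that was 0.10 without palbociclib replicate 4. Dusp2, a phosphatase that switches off MAP kinases, had 53.6, 54.7, 50.6 and 49.1 CPM against 90.7, 103, 79.9 and 90.8 CPM. Its log2 fold change was 0.81 ± 0.22, and those of Dusp1, a related phosphatase, and Junb, part of the AP-1 factor, were 0.94 ± 0.34 and 0.41 ± 0.19, all 3 without overlap. Heat shock genes had a median of 0.01, and Dnajb6, a co-chaperone, had 0.41 without overlap. ER stress and proteasome genes had medians of 0.07 and -0.06.

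Genes of stem cell identity differed little as a group and more as single genes. Of 40 HSC identity genes, 28 had positive values, with 0 called and a median of 0.15. That median was 0.05 without combination replicate 2, 0.41 without palbociclib replicate 2 and 0.01 with the neutrophil share as a covariate. Procr, the protein C receptor EPCR that marks HSCs, had 39.4, 99.2, 75.1 and 66.5 CPM in palbociclib and 103, 169, 129.8 and 130.1 CPM in combination libraries. Ly6a, which encodes the sort marker Sca-1, had 172, 157, 477 and 379 CPM against 500.0, 619, 793 and 705 CPM. Both had separate groups, with log2 fold changes of 0.92 ± 0.33 and 1.14 ± 0.53. Gfi1b and Esam, the other members of this list named by smallest p, had -0.97 ± 0.48 and 0.45 ± 0.26 with overlapping groups. Ly6a is also known to respond to interferon. The other sort genes overlapped: Slamf1, Kit and Cd48, whose protein HSCs lack, had 0.35 ± 0.34, 0.17 ± 0.33 and -0.06 ± 0.69. Genes raised in aged HSCs had a median of -0.02 over 31 members, with Selp among them. Of 24 progenitor genes 13 were negative, while Cd34 and Flt3, markers of cells downstream of the HSC, had 0.75 ± 0.30 and 1.10 ± 0.49 with overlapping groups.

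Markers of other blood cells were mostly lower, and the medians moved with single libraries. All 22 tested B cell markers were negative with a median of -1.94, which became -0.41 without palbociclib replicate 1. T and NK cell markers (23 of 25 negative, median -1.39), erythroid markers (23 of 24, -0.67) and MHC class II genes (8 of 10, -0.80) had medians of -0.01, 0.14 and 0.11 without that library. The mean log2 CPM of the T and NK list ran from 0.24 to 3.40 in palbociclib and from -0.04 to 1.20 in combination libraries, and that of the erythroid list from 2.17 to 5.48 and from 2.36 to 3.92. In combination replicate 2, Cd3e (T cells), Adgre1 and C1qa (macrophages), Lepr and Cdh5 (stroma and vessels) were all at 0. Cd79a of the B cell receptor was at 202 CPM in palbociclib replicate 1 and at 3.95 to 25.6 CPM in the other 7 libraries. Neutrophil markers were negative in 18 of 30, with a median of -0.20 that was -0.92 without combination replicate 3 and 0.16 without combination replicate 2. Camp and Ltf, proteins of neutrophil granules, had log2 fold changes of -1.82 ± 0.72 and -1.50 ± 0.66 with overlapping groups. Il1r2, another of these markers, went the other way at 1.18 ± 0.67, also with overlap, and 12 of the 30 were positive. Averaged over all 30 markers, levels hardly differed: 8.51 ± 1.43 log2 CPM with palbociclib alone and 8.47 ± 1.38 with both drugs (SD, n = 4). Camp had 7497, 766, 4211 and 3198 CPM in palbociclib and 581, 376, 1776 and 1708 CPM in combination libraries. Megakaryocyte markers were negative in 19 of 29, with a median of -0.23. That median was -0.53 without palbociclib replicate 3 and -0.10 without palbociclib replicate 1. In 2 of the 29, Selp among them, all combination libraries were higher (2.23% of all genes), and in 0 all were lower (1.61%). Pf4, a platelet chemokine, had 1088 CPM in palbociclib replicate 1 and 64.4 to 452 CPM elsewhere. Its log2 fold change of -1.60 ± 0.66 was -0.85 without that library. How far these cells bear on the other differences was not tested for single genes.

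The last comparison asked whether rapamycin did the same without palbociclib. The difference between rapamycin and vehicle libraries comes from the other 8 libraries, and so shares no library with the difference described above. Across all genes the 2 log2 fold changes had a Pearson r of 0.15 and a Spearman rho of -0.04, with the same sign in 48.1% of genes. Among genes whose mean log2 CPM was 5 or more, Pearson's r was -0.07. These are descriptions across genes, which are not independent replicates. The lists behaved in the same mixed way: the S-phase and G2/M medians were 0.10 and 0.34 for rapamycin against vehicle, and the interferon median was -0.12. Oxidative phosphorylation, mitochondrial ribosome and sterol genes had -0.13, -0.14 and -0.25, next to -0.10, -0.09 and -0.24 when rapamycin was added to palbociclib. The mean log2 CPM of the S-phase list was 6.04 ± 0.21 in vehicle, 6.14 ± 0.16 in rapamycin, 6.59 ± 0.10 in palbociclib and 6.30 ± 0.16 in combination libraries (SD, n = 4). For the G2/M list it was 5.04 ± 0.33, 5.40 ± 0.33, 5.77 ± 0.26 and 5.13 ± 0.64 in the same order. In both lists the palbociclib mean was the highest, and the combination mean was not below the vehicle mean.

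The difference between the 2 differences was tested as an interaction in the same edgeR fit. It called 0 of 15308 genes (0%), with 868 at an unadjusted p below 0.05 and a lowest adjusted p of 0.051. DESeq2 called 45 and limma 0. The 4 genes named next were chosen after their values were seen. Bhlhe40, a circadian and stress-responsive repressor, averaged 66.8 ± 19.7 CPM in vehicle, 16.5 ± 4.78 in rapamycin, 43.5 ± 8.4 in palbociclib and 52.2 ± 3.69 in combination libraries (SD, n = 4). Its interaction was 2.28 ± 0.34 on the log2 scale (edgeR adjusted p = 0.051), and it was the only gene called between rapamycin and vehicle (edgeR adjusted p = 0.00721). Selp averaged 153 ± 49.2, 62 ± 17.5, 112 ± 20.8 and 216 ± 24.3 CPM in the same order, and Gpr4 55.1 ± 22.2, 21.1 ± 5.36, 32.9 ± 14 and 95.5 ± 10.9 CPM (SD, n = 4). In both, the mean was lower in rapamycin than in vehicle libraries and higher in combination than in palbociclib libraries. Their interactions were 2.25 ± 0.35 and 2.92 ± 0.46, each with an edgeR adjusted p of 0.051. Socs3, which damps JAK-STAT signals of cytokine receptors, averaged 41.1 ± 9.66, 16.9 ± 1.99, 23.1 ± 5.72 and 36.9 ± 6.89 CPM (SD, n = 4), with an interaction of 1.96 ± 0.33 (edgeR adjusted p = 0.086). Bhlhe40, Selp and Gpr4 passed 0.05 with DESeq2 size factors, with a stricter low-count filter and without blood and stromal marker genes.

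**Figure D5:**
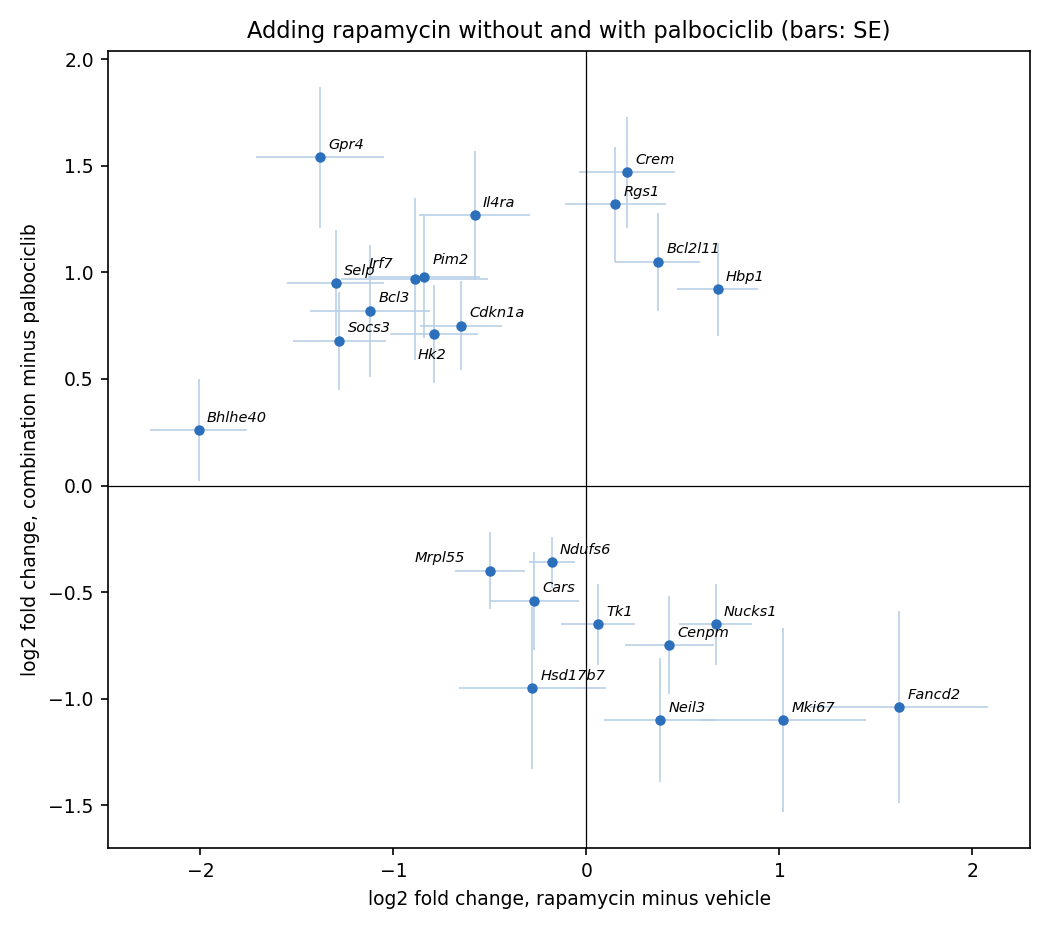
Each point is a gene described in the text, with its log2 fold change for rapamycin minus vehicle on the x axis and for combination minus palbociclib on the y axis, and bars are standard errors. Gpr4, Selp, Socs3 and Bhlhe40 lie at the upper left, Crem, Rgs1, Bcl2l11 and Hbp1 at the upper right, and Mrpl55, Cars and Hsd17b7 at the lower left.

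For Crem and Rgs1 the rapamycin minus vehicle values were 0.21 ± 0.25 and 0.15 ± 0.26, next to 1.47 and 1.32 in the presence of palbociclib. Hbp1 had 0.68 ± 0.21 and 0.92 ± 0.22, so its mean was higher with rapamycin in both settings. Mki67 had 1.02 ± 0.43 without and -1.10 ± 0.43 with palbociclib, and Fancd2 had 1.62 ± 0.46 and -1.04 ± 0.45. Cdkn1a had -0.65 ± 0.21 and 0.75 ± 0.21. None of these genes passed the interaction test over all genes.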

How the data were processed

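Of 16 RNA libraries of sorted mouse HSCs, 8 are compared here. Per the labels' protocols they were made with a Clontech kit for low input. STAR 2.5.3a, RSEM 1.3.0, SAMtools 1.3 and the build mm10 are named in the submitters' processing notes, without roles. The annotation, the filters and the strand setting are not given here, so overlapping and antisense genes may share reads. The authors deposited expected counts per gene, already whole numbers, and, for the same genes, log2(TPM + 1), whose pseudocount is 1. Groups came from the sample titles.

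Symbols and coordinates came from GENCODE M21 (GRCm38), which named 50462 of 50686 IDs. In no library did the 224 unnamed IDs hold more than 0.0562% of the counts. edgeR 4.0.16 in R 4.3.3 fitted all 16 libraries with a mean per group and no covariate, after filterByExpr (minimum count 10) and TMM scaling (factors 0.889 to 1.14), with 12 residual degrees of freedom and a biological coefficient of variation of 55.8%. Filtered genes held 99.8% to 99.9% of the counts of the 8 libraries. p-values were adjusted by Benjamini-Hochberg over 15308 genes, and a gene was called at an adjusted p below 0.05. CPM values are TMM-scaled, and log2 CPM has a prior count of 2. Errors of fold changes are standard errors of that fit. DESeq2 1.42.0 and limma 3.58.1 gave alternatives, with other scalings, filters, covariates, a replicate block and each library left out. The scripts were tested on simulated counts. Replicates within the 2 groups correlated at 0.892 to 0.958 in log2 CPM over 12 pairs, with a chi-square per degree of freedom of 23.6 or more, so none repeated another. The spread between libraries far exceeded counting error, so no counting interval is given.

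The contrast, the 39 gene lists (1257 of 1258 entries matched), the rule for named genes and the tests were chosen with earlier results of these data known. The rule took, among genes whose mean log2 CPM was 1 or more, predicted genes apart, the 10 higher and 10 lower genes of smallest p, all drug targets and sort markers, and at most 4 members per described list, again by smallest p. Markers that define cell types and 4 interaction genes were named beside them, the latter after their values were seen. Lists were not tested. Promoters came from the RefSeq table, with the windows of 1 chromosome left out of every count.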

Additional observations from a re-analysis of the deposited data

Results flagged for a closer look

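Of 252 groups of 4 libraries checked, over most of the genes and lists described, 14 held 1 library farther from its nearest neighbour than Dixon's 95% critical value for 4 values allows. By chance about 1 in 20 groups is flagged. No explanation was tested for any of them. In the palbociclib group, Myl10 stood at 222 CPM in replicate 2 with the others at 14.4 to 45.4, and St3gal5 at 95.8 CPM in replicate 1 with the others at 21.7 to 28.7. Cdk6 was high in palbociclib replicate 4, at 331 CPM against 145 to 172, and in combination replicate 1, at 319.6 CPM against 223 to 239.5. Palbociclib replicate 2 was low for Ccnd3, at 395 CPM with the others at 806 to 855, and for Bcl3, at 19.1 CPM with the others at 52 to 57.7.

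In the combination group, Slamf1 was low in replicate 3, at 21.1 CPM against 35.1 to 38. That library was high for Hk2, at 74.8 CPM against 57.6 to 59.5, and for Slc2a1, at 135 CPM against 112 to 113. Rps19 stood at 2001 CPM in combination replicate 2, with the others at 1466 to 1520.0. Among lists, the mean log2 CPM of the Fanconi and recombination repair genes was 3.62 in combination replicate 2 and 4.00 in each of the others. The p53 target genes were at 4.51 in palbociclib replicate 2 against 4.32 to 4.35, and at 4.10 in combination replicate 2 against 4.47 to 4.54. Stromal and endothelial markers were at 3.30 in palbociclib replicate 3 against 2.90 to 2.97.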

How the results depend on the processing

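The count of called genes stayed at 0 under 20 of 21 alternatives, every one that left out a library included. It was 20 with DESeq2, which was run without the low-count filter of the edgeR fit. Genes at an unadjusted p below 0.05 numbered 308 (without palbociclib replicate 1) to 516 (without palbociclib replicate 3) when 1 library was left out, 1008 with no low-count filter and 677 with only the 8 libraries in the fit, against 436. The interaction called 45 genes with DESeq2, 4 with no low-count filter, and 3 each with DESeq2 size factors, a stricter low-count filter or without blood and stromal marker genes. It called 0 with each library left out. The cause of these changes was not tested. With the replicate block 0 genes were called in either comparison and 477 had an unadjusted p below 0.05. Deviations of same-numbered libraries correlated at 0.01, 0.35, 0.28 and 0.04. Combination replicates 2 and 3 correlated best with the same-numbered palbociclib library, and replicates 1 and 4 with palbociclib replicates 2 and 3. The B cell and immunoglobulin share and the interferon mean ranked the replicates 3, 4, 1 and 2 from high to low in each group. The labels do not say that a number is shared between groups, so the main fit had no block. Whether the numbers pair the libraries was not tested. The median of G2/M genes ran from -0.81 to -0.33 and that of S-phase genes from -0.30 to -0.21 with 1 library left out.

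Of 1699 values of 81 genes under the alternatives, 1677 kept their sign and 22, of 6 genes, did not. All 6 are drug targets or sort markers with values near 0. With 1 library left out, Cdk4 ran from -0.12 to 0.00, Ccnd1 from -0.20 to 0.13, Ccnd3 from -0.20 to 0.11, Rptor from -0.14 to 0.08 and Cd48 from -0.86 to 0.50. Ccnd3 was -0.01 with DESeq2, DESeq2 size factors, only the 8 libraries or without marker genes, and -0.00 with no filter. Rptor was 0.00 on log2(TPM + 1). With the neutrophil share as a covariate, and with the neutrophil and B cell shares, Cd48 was 0.34 and 0.56 and Kit -0.02 and -0.06. Of 772 list medians 768 moved by less than 1 SD between libraries. The 4 others were hypoxia at 0.22 without combination replicate 4, stroma at -0.58 without combination replicate 1, and T/NK and MHC class II at -0.01 and 0.11 without palbociclib replicate 1.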

Other observations

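Some markers of marrow niche and immune cells varied more between libraries than between groups. Cxcl12, the chemokine that stromal cells use to retain HSCs, had 43.3, 30.9, 99.8 and 72.1 CPM in palbociclib and 221, 10, 39.6 and 49.8 CPM in combination libraries, so combination replicates 1 and 2 held the highest and the lowest level of all 8. Over the 24 tested stromal and endothelial markers the median log2 fold change was 0.15, and over 22 monocyte and dendritic cell markers it was -0.10. Without combination replicate 1 these medians were -0.58 and -0.63. Mast cell, eosinophil and basophil markers had a median of 0.09 over 14 tested members.

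Replication histone genes, whose transcripts mostly lack a poly(A) tail, were negative in 15 of 24 tested members of 35 listed, with a median of -0.22. That median was -0.51 without combination replicate 3 and 0.10 without palbociclib replicate 1. Palbociclib libraries averaged 1.53 ± 0.49 and combination libraries 1.46 ± 0.46 in the mean log2 CPM of these genes (SD, n = 4). Fatty acid synthesis genes had a median of -0.10 over 17 members, with overlapping groups in every one.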
